A study of Mus musculus with 6 samples.

Results

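Cathepsins are among the proteases of the lysosome, and 10 of them were followed by gene symbol: Ctsa, Ctsb, Ctsc, Ctsd, Ctsf, Ctsh, Ctsk, Ctsl, Ctss and Ctsz. These are 10 of the 30445 genes in the count table, and all 10 had enough counts to be tested. The study sequenced mRNA of 3 kinds of mouse cell, with 2 libraries each and all labelled wild type. They were embryonic fibroblasts (MEF), induced macrophages (iMac) and a myeloid-like cell complex (MCC). The series title names c-Myc as the factor that turned fibroblasts into macrophages. The sources used here do not give how MCC and iMac were derived, which cells carried c-Myc or the age of the embryos. The labels do not state whether both libraries of a group came from separate cultures, so the p-values measure only the spread between these libraries, which may be technical.

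Lysosomal proteases are made as inactive proforms, tagged with mannose 6-phosphate, carried to the acidic lysosome and activated there by removal of the propeptide. Most cathepsins are cysteine proteases of the papain family, while cathepsin D is an aspartic protease and cathepsin A a serine carboxypeptidase. Macrophages are known for a large lysosomal compartment that degrades engulfed material, and fibroblasts also carry cathepsins for the routine turnover of proteins. Cystatins are the main natural inhibitors of the papain family.

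The stretch of coding sequence around the catalytic residue is shown for 7 papain-family members, because it is what makes them one family and shows where they differ. Bases are from the GRCm38 assembly (the assembly also called mm10) with GENCODE M21 gene models, written along the gene's own strand, and the capitals mark the codon of the catalytic cysteine. The Ctsb window is joined across an intron, so its coordinates span more than the bases printed.
Ctsb, chr14:63135705-63136415, plus strand: tcctgcggctctTGTtgggcatttggg
Ctsl, chr13:64367063-64367089, minus strand: cagtgcgggtctTGTtgggcgtttagc
Ctss, chr3:95545336-95545362, plus strand: tcttgtggtgccTGCtgggctttcagt
Ctsk, chr3:95502585-95502611, plus strand: cagtgtggttccTGTtgggctttcagc
Ctsc, chr7:88308015-88308041, plus strand: tcttgtggaagcTGCtactcatttgcc
Ctsh, chr9:90064510-90064536, plus strand: gcctgtggcagcTGCtggactttctct
Ctsz, chr2:174438184-174438210, minus strand: tactgtggttccTGCtgggcccacggc
These 7 carry a cysteine codon at this place, written TGC in Ctss, Ctsc, Ctsh and Ctsz and TGT in Ctsb, Ctsl and Ctsk. Ctsd and Ctsa use other residues, and the capitals below mark the codons of both catalytic aspartates of Ctsd and of the catalytic serine of Ctsa.
Ctsd, chr7:142383467-142383493, minus strand: acagtcgtctttGATactggctcctct
Ctsd, chr7:142377101-142377127, minus strand: gaggctattgtgGACacagggacatct
Ctsa, chr2:164835231-164835257, plus strand: ctgacaggagagAGCtatgctggcatc

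Library totals lay between 34389817 and 39174367 counts. Libraries of 1 group differed from each other by more than counting noise (chi-square per degree of freedom 159 in MEF, 52.3 in MCC and 10.1 in iMac), so none was taken for a repeat deposit of another. This does not tell separate cultures from repeat preparations. The labelled cell types were checked against marker lists, as summed CPM, the count per 1000000 of the scaled library total. The 10 fibroblast markers summed to 20000 and 8510 CPM in MEF, 886 and 76.9 in MCC, with 14.7 and 11.4 in iMac, with Lum at 0 in iMac library 2. The 10 macrophage markers summed to 5.88 and 8.76 CPM in MEF, 13200 and 12800 in MCC, with 23800 and 20100 in iMac, with Itgam at 0 in MEF. Neutrophil markers stayed at or below 15 CPM in sum, with Mpo and Ly6g at 0 in MCC and iMac, and mast cell, T, NK and B cell markers at or below 1.44 CPM in sum. Dendritic cell markers summed to between 7.26 and 11.1 CPM in every library, epithelial markers to at most 6.13, and endothelial markers to 33.6 and 43.6 in MEF and 8.02 to 10 elsewhere. In bulk RNA, a change in the number of cells of a type and a change in RNA per cell cannot be told apart.

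As a group the 10 cathepsins took 0.294% and 0.303% of all counts in the MEF libraries, 1.76% and 1.73% in MCC, with 2.26% and 2.15% in iMac. The groups did not overlap. Their summed level was 2980 ± 205 CPM in MEF, 16710 ± 267 in MCC and 23190 ± 1260 in iMac (mean ± SD, n = 2 throughout), which is 5.61 times the MEF level in MCC and 7.78 times in iMac. Ctsb made up 27.5% of this sum in MEF, 38.6% in MCC and 51.3% in iMac. Ctsc, Ctsh, Ctsk, Ctsl and Ctss had lower means in iMac than in MCC. Against MEF, 9 of the 10 rose in MCC (adjusted p under 0.05, edgeR quasi-likelihood test with Benjamini-Hochberg adjustment over 18613 genes), where 53.0% of all genes tested passed, 23.4% higher and 29.6% lower. In iMac the same 9 rose, where 57.6% of all genes tested passed, 25.1% higher and 32.4% lower. Ctsk was the member that passed the test in neither comparison, and no cathepsin fell. For the same 9 both libraries of MCC lay above both of MEF, and likewise in iMac. With 2 libraries a group this was common: 80.5% of all genes tested did not overlap between MCC and MEF (38.2% higher, 42.4% lower) and 82.6% between iMac and MEF (39.1% higher, 43.5% lower). The median log2 fold change of the 10 was 2.18 in MCC and 2.21 in iMac, beside -0.05 and -0.06 over all genes tested. Both comparisons use the same MEF libraries. The 9 rises kept their calls under all 14 alternative settings, which include leaving out each library in turn, with a highest adjusted p of 0.0139.

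**Figure D1:**
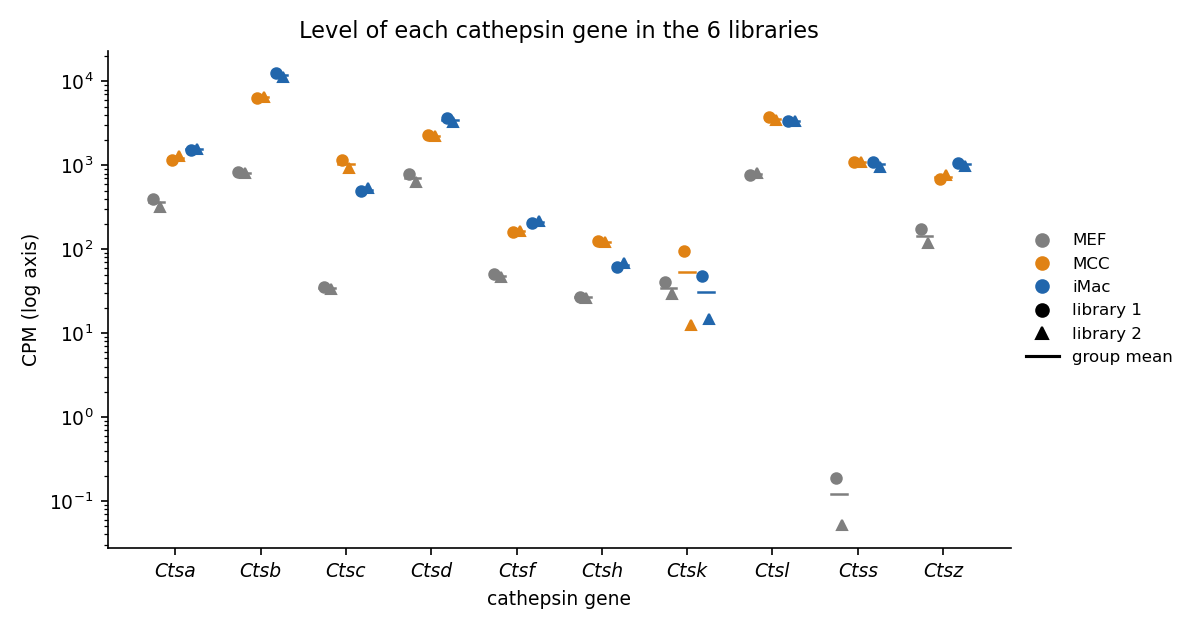
Level of each cathepsin gene (CPM, log axis) in every library, with circles for library 1, triangles for library 2 and a dash at the group mean. The MEF points lie below all MCC and iMac points for 9 genes, and Ctss in MEF lies at 0.190 and 0.0515 CPM, while the Ctsk points of the 3 groups overlap.

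Ctsd encodes cathepsin D, the main aspartic endopeptidase of the lysosome. Its level was 786 and 630.3 CPM in MEF, 2278 and 2241 in MCC, with 3698 and 3290 in iMac. The groups did not overlap, and the log2 fold change was 1.67 ± 0.16 (± SE) in MCC (adjusted p = 0.00189) and 2.30 ± 0.17 in iMac (adjusted p = 0.000713). Of its annotated exonic bases, 34.4% are shared with the predicted gene Gm49369 on the same strand, which has 1 count in the table, so the split of reads between them is uncertain.

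Ctsa encodes protective protein/cathepsin A, which holds neuraminidase 1 and beta-galactosidase in a stable complex besides acting as a carboxypeptidase. It was at 402 and 322 CPM in MEF, 1162 and 1277 in MCC, with 1542 and 1556 in iMac, again without overlap. The log2 fold change was 1.75 ± 0.15 in MCC (adjusted p = 0.00139) and 2.10 ± 0.15 in iMac (adjusted p = 0.000725). Ctsa shares 17.4% of its exonic bases with Neurl2 and Pltp on the opposite strand. Pltp, a phospholipid transfer protein gene, had 2653 and 3173 counts in MEF, 5500 and 7268 in MCC, with 27574 and 21479 in iMac. The sources used here do not give the strand setting of the counting, so reads of Ctsa and Pltp in the shared stretch cannot be told apart. The 3 enzymes that work with cathepsin A, Neu1, Glb1 and Galns, all rose in both comparisons. Among all genes tested, 23.4% rose in MCC and 25.1% in iMac. Neu1, the neuraminidase, rose from 30.1 ± 0.187 CPM in MEF to 82.8 ± 3.29 in MCC and 109 ± 4.58 in iMac, Glb1, the beta-galactosidase, had a log2 fold change of 1.19 ± 0.13 in iMac, and Galns, a sulfatase, one of 1.58 ± 0.16.

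Ctsb encodes cathepsin B, a cysteine protease that cuts both inside proteins and from their carboxy end. It had the highest CPM of the 10 in every library of MCC and iMac. It was at 832 and 807 CPM in MEF, 6391 and 6498 in MCC, with 12490 and 11340 in iMac, so the 3 groups lay apart. The log2 fold change was 2.98 ± 0.15 in MCC (adjusted p = 0.000363) and 3.86 ± 0.16 in iMac (adjusted p = 0.000169). Ctsb shares 12.8% of its exonic bases with Fdft1 on the opposite strand. Fdft1, the squalene synthase gene, moved the other way, from 3403 and 5288 counts in MEF to 380 and 354 in iMac.

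Ctsl encodes cathepsin L, a strong endopeptidase of the lysosome. Its level was 777 and 822 CPM in MEF, 3727 and 3432 in MCC, with 3385 and 3334 in iMac. MCC and iMac lay above MEF, with log2 fold changes of 2.16 ± 0.13 in MCC (adjusted p = 0.000541) and 2.07 ± 0.13 in iMac (adjusted p = 0.000477). Of its exonic bases, 32.9% are shared with the predicted genes Gm47123 and Gm49230, neither of which has a row in the table.

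Ctss encodes cathepsin S, which stays active at neutral pH and cuts the invariant chain in antigen-presenting cells. It was nearly absent from fibroblasts, with 7 and 2 counts in the MEF libraries, against 42762 and 40455 in MCC and 36828 and 31785 in iMac. Scaled, these are 0.190 and 0.0515 CPM in MEF, 1112 and 1082 in MCC, with 1100 and 958 in iMac. The ratio of summed counts to MEF was 9230 in MCC (95% counting interval 4860 to 20200) and 8660 in iMac (4560 to 18900). These intervals cover counting error only. The fitted log2 fold changes were 13.13 ± 0.47 (adjusted p = 0.000142) and 13.03 ± 0.47 (adjusted p = 0.000127).

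The invariant chain gene Cd74, whose product is a substrate of cathepsin S, rose in both comparisons from a low base, 0.241 ± 0.158 CPM in MEF to 20.9 ± 3.24 in MCC and 18.2 ± 3.59 in iMac. Of 7 genes listed for class II antigen presentation, 2 rose in each comparison (Cd74 and H2-DMb1), 1 fell (H2-Eb1) and 4 did not pass the test. Among all genes tested, 23.4% rose and 29.6% fell in MCC, with 25.1% and 32.4% in iMac. The class II chain genes H2-Aa and H2-Ab1 lay at or below 1.38 CPM in every library, and H2-Eb1 at or below 0.721 CPM. The H2-Eb1 call in iMac was lost without either MEF library and without either iMac library (adjusted p 0.0798 to 0.13). The number that fell was 2 in MCC without MCC library 1, and 2 in iMac without either MCC library.

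Ctsf encodes cathepsin F, another cysteine endopeptidase. Its level was 50.4 and 46.7 CPM in MEF, 162 and 166 in MCC, with 207 and 216.5 in iMac. No groups overlapped, and the log2 fold change was 1.76 ± 0.09 in MCC (adjusted p = 0.000346) and 2.12 ± 0.09 in iMac (adjusted p = 0.000176).

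Ctsc, Ctsh and Ctsz act mainly from the ends of proteins. Ctsc encodes cathepsin C, or dipeptidyl peptidase I, which activates granule serine proteases of leukocytes. It was at 36.0 and 33.4 CPM in MEF, 1153 and 932 in MCC, with 495 and 535 in iMac. MCC was the highest group and iMac lay between the others, with log2 fold changes against MEF of 4.91 ± 0.16 in MCC (adjusted p = 0.000131) and 3.89 ± 0.16 in iMac (adjusted p = 0.000158). Of 9 serine proteases listed as matured by cathepsin C, 6 have rows and 1 had enough counts to be tested. This was Prtn3, proteinase 3, at 3 and 4 counts in MEF, 390 and 524 in MCC, with 173 and 183 in iMac, which rose in both comparisons. Leaving out MEF library 1 gave 1 of the 6 as lower in both comparisons, and leaving out either MCC library gave 2 as higher in iMac. Elane, the neutrophil elastase gene, had 0 counts in MEF, 12 in MCC and 15 in iMac over both libraries.

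Ctsh encodes cathepsin H, which works mainly as an aminopeptidase. Its level was 27.2 and 26.5 CPM in MEF, 124 and 121 in MCC, with 61.1 and 68.1 in iMac. Its order of groups was that of Ctsc, and its log2 fold change was 2.19 ± 0.10 in MCC (adjusted p = 0.000252) and 1.27 ± 0.10 in iMac (adjusted p = 0.000784). Ctsz encodes cathepsin Z, a carboxypeptidase. It was at 174 and 117.5 CPM in MEF, 695 and 761 in MCC, with 1057 and 993 in iMac, and its groups did not overlap. The log2 fold change was 2.32 ± 0.22 in MCC (adjusted p = 0.00173) and 2.81 ± 0.22 in iMac (adjusted p = 0.000876).

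**Figure D2:**
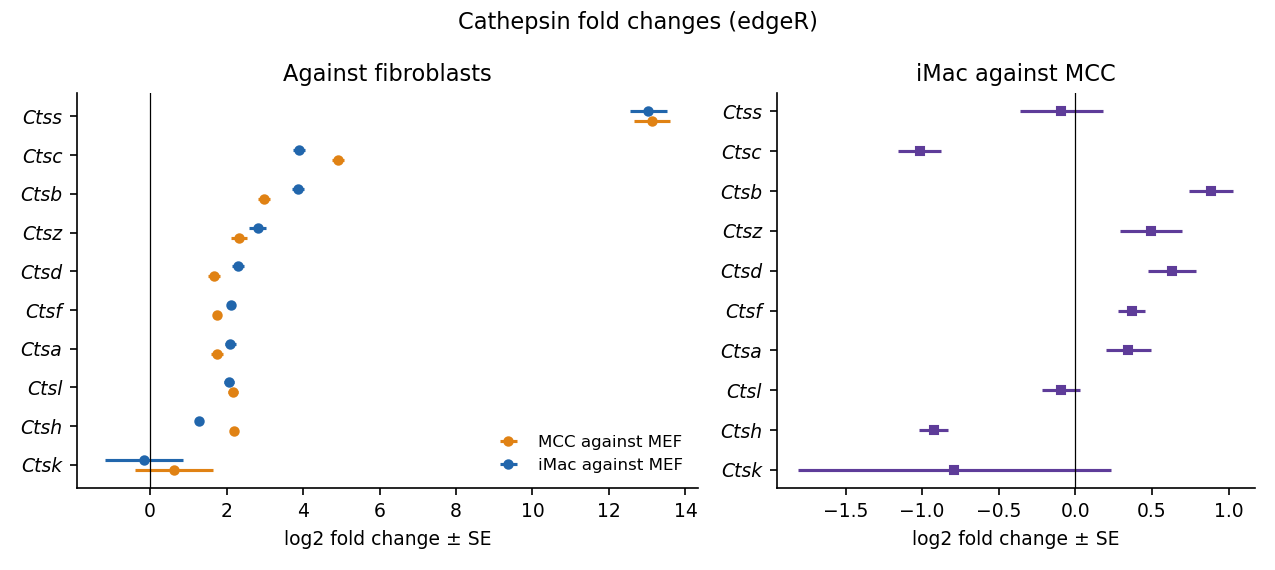
Log2 fold changes (points) with their SE (bars) from the edgeR fit, for MCC and iMac against MEF on the left and for iMac against MCC on the right. Ctss stands near 13 on the left, Ctsk has the widest bars, and on the right Ctsc and Ctsh lie near -1 and Ctsb near 0.9.

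Ctsk encodes cathepsin K, the collagen-degrading protease best known from osteoclasts, and it was the member whose libraries disagreed. It was at 41.0 and 29.0 CPM in MEF, 95.5 and 12.4 in MCC, with 47.8 and 14.7 in iMac. All 3 groups overlapped. The log2 fold change was 0.63 ± 1.02 in MCC (adjusted p = 0.627) and -0.16 ± 1.01 in iMac (adjusted p = 0.901). Without MCC library 1 the first was -1.48, and the second was 0.116 without MEF library 1 and 0.465 without iMac library 2, so the direction rested on single libraries.

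Library 1 was 7.68 times library 2 for Ctsk in MCC and 3.25 times in iMac. On log2(CPM + 0.5) the iMac difference was 1.67, the widest of all 18613 genes tested, while the other 9 cathepsins differed by at most 0.20 between the iMac libraries. With 0.05 CPM added in place of 0.5 it ranked 335, and with 2 CPM it again ranked 1. These ranks were looked at after the Ctsk values were seen. The summed fibroblast markers differed 11.5-fold in the same direction in MCC (886 against 76.9 CPM) and 1.29-fold in iMac (14.7 against 11.4 CPM). Their part in the Ctsk difference was not tested.

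**Figure D3:**
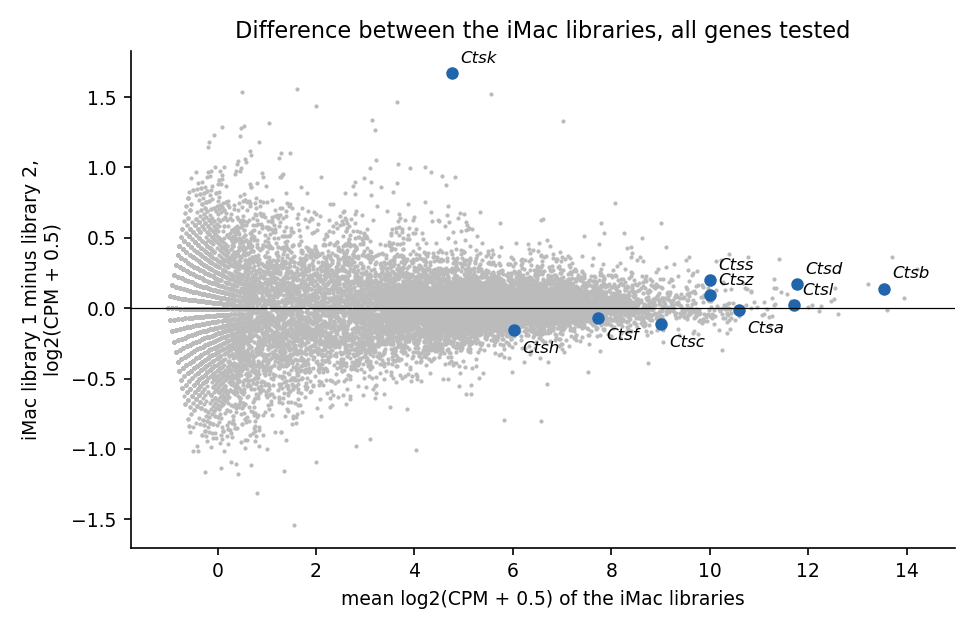
Difference between the iMac libraries (library 1 minus library 2, log2(CPM + 0.5)) against their mean for every gene tested (grey), with the cathepsins in blue. Ctsk lies at the top of the plot at 1.67, and the other 9 lie within 0.20 of 0.

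The 10 osteoclast markers summed to 76.2 and 68.8 CPM in MEF, 187 and 216 in MCC, with 228 and 210 in iMac, with Calcr at 0 in MCC and iMac. Over all genes tested, 23.4% rose and 29.6% fell in MCC, with 25.1% and 32.4% in iMac. The markers were divided: 9 were tested, of which 6 rose and none fell in MCC, and 5 rose and 1 fell in iMac. Tnfrsf11a, the receptor RANK, was among those that rose, at 6.32 and 2.01 CPM in MEF, 68.0 and 80.2 in MCC, with 75.2 and 69.3 in iMac. Itgb3, integrin beta 3, was the one that fell in iMac (log2 fold change -4.38 ± 1.01, adjusted p = 0.0168), and in MCC its value was -2.78 ± 0.93 (adjusted p = 0.054). It was at 47.7 and 35.8 CPM in MEF, 10.8 and 1.34 in MCC, with 2.24 and 1.75 in iMac. The library 1 to library 2 ratio of the sum was 0.867 in MCC and 1.08 in iMac. Single markers differed more: Itgb3 was higher in library 1 of MCC, as Ctsk was, and Ocstamp had 18 and 5 counts in iMac. Their part in the Ctsk difference was not tested either. Acp5, the tartrate-resistant acid phosphatase of osteoclasts, was at 3.71 and 2.45 CPM in MEF, 8.24 and 9.98 in MCC, with 3.73 and 3.50 in iMac.

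Between MCC and iMac, none of the 10 cathepsins passed the edgeR test, where 4 of 18613 genes (0.0215%) did, 0.0107% higher and 0.0107% lower. At an unadjusted p under 0.05 there were 3380 genes and 5 cathepsins. Ctsc had a log2 fold change in iMac against MCC of -1.02 ± 0.14 (adjusted p = 0.088) and Ctsh one of -0.93 ± 0.09 (adjusted p = 0.0756). Ctsb had one of 0.89 ± 0.14 (adjusted p = 0.111), Ctsd of 0.63 ± 0.16 (adjusted p = 0.18) and Ctsf of 0.37 ± 0.09 (adjusted p = 0.171). Ctsl and Ctss had values of -0.09 ± 0.12 and -0.09 ± 0.27, and Ctsa and Ctsz of 0.35 ± 0.15 and 0.49 ± 0.20. The libraries did not overlap between MCC and iMac for 8 of the 10, all but Ctsk and Ctss, with 5 higher and 3 lower in iMac. Of all genes tested, 55.6% did not overlap, 27.7% higher and 27.9% lower.

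These calls depended on the tool and on the libraries. DESeq2 called Ctsb, Ctsd and Ctsf higher and Ctsc and Ctsh lower in iMac, among 2734 genes. A fit of only these groups called the same 5 and Ctsz, among 1364 genes, and limma-voom called Ctsb, Ctsc and Ctsh, among 146. Without MCC library 2, edgeR called Ctsc (adjusted p = 0.0117) and Ctsh (adjusted p = 0.0189) lower. Over all 14 alternatives the adjusted p of Ctsc ran from 3.56e-09 to 0.767, that of Ctsh from 2.77e-19 to 0.767 and that of Ctsb from 5.93e-25 to 0.767, without a change of direction.

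The make-up of the cathepsin transcripts was set out per length, as CPM per kilobase of the principal transcript. In MEF the order was Ctsl at 406 ± 16.3, Ctsd at 333 ± 51.7, Ctsb at 173 ± 3.71, Ctsz at 101 ± 27.9 and Ctsa at 99.3 ± 15.4 CPM per kilobase. Ctsf, Ctsk, Ctsh and Ctsc lay between 24.5 and 13.9, and Ctss was lowest at 0.089. The libraries of Ctsz and Ctsa overlapped, and so did those of Ctsf and Ctsk.

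In MCC the order was Ctsl at 1820 ± 106, Ctsb at 1360 ± 16.1, Ctsd at 1060 ± 12.4, Ctss at 810 ± 15.6, Ctsz at 505 ± 32.5, Ctsc at 418 ± 62.7 and Ctsa at 335 ± 22.3 CPM per kilobase. Ctsf, Ctsh and Ctsk followed at 82.9, 75.8 and 35.7, and no neighbours overlapped. In iMac Ctsb led at 2510 ± 172 CPM per kilobase, followed by Ctsl at 1700 ± 18.4, Ctsd at 1640 ± 136, Ctss at 759 ± 73.8, Ctsz at 711 ± 31.8, Ctsa at 425 ± 2.78 and Ctsc at 207 ± 11.5. Ctsf, Ctsh and Ctsk again came last, at 107, 39.9 and 20.7, and the libraries of Ctsl and Ctsd, and of Ctss and Ctsz, overlapped.

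As a share of the summed level per kilobase, Ctsb made up 14.5% ± 0.795 in MEF, 20.9% ± 0.777 in MCC and 30.9% ± 0.496 in iMac. Ctsl went the other way, from 34.2% ± 3.97 in MEF to 27.9% ± 0.925 in MCC and 21.0% ± 0.874 in iMac. Ctss went from 0.00727% ± 0.00551 in MEF to 12.5% ± 0.0753 in MCC and 9.33% ± 0.418 in iMac. Ctsd held 27.9%, 16.3% and 20.2%. The shares add up to the whole by construction, so they are not independent of each other, and they were not tested.

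The choice of length moved the levels of the shares but not the directions given for Ctsb and Ctsl. With all annotated exons as length, Ctsl held 15.9%, 12.5% and 8.74% in MEF, MCC and iMac, while Ctsb held 17.4%, 24.1% and 33.2%. With that length Ctsd led in MEF at 38.4%, and Ctsb led in MCC and iMac. Without any length correction Ctsb held 27.5%, 38.6% and 51.3%, and Ctsl 26.9%, 21.4% and 14.5%.

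**Figure D4:**
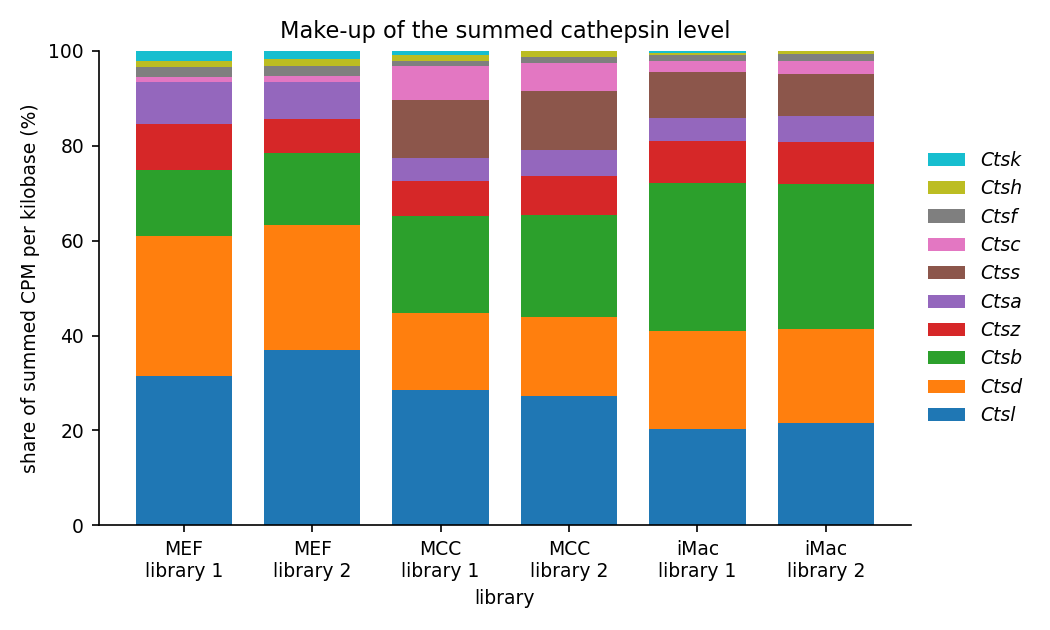
Share of each cathepsin (stacked colours, %) in the summed CPM per kilobase of the 10 genes, 1 bar per library. The Ctsb segment widens from 14.5% in MEF to 30.9% in iMac, the Ctsl segment narrows from 34.2% to 21.0%, and Ctss is visible in MCC and iMac alone.

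Ctsk and Ctss are neighbours on chromosome 3, at chr3:95499256-95509362 and chr3:95526786-95556403 on the plus strand, with 17.4 kb and no annotated gene between them. Ctss was the member with the largest fold change and Ctsk the one that did not pass the test. Their promoters are therefore shown with that of Ctsc, the next largest rise in both comparisons. The Ctsd promoter, which holds both forms of CACGTG given below, is shown as well, although the rise of Ctsd was smaller. All are RefSeq sequence on GRCm38.p6 from 250 bases before to 10 bases after the annotated start. The promoters of Ctsa, Ctsf, Ctsl and Ctsz are not shown, and that of Ctsz holds none of the motifs marked here. Capitals mark GAGGAAGT (ACTTCCTC when read from the other strand) in Ctss and Ctsc. In Ctsd they mark CACGTG once and, further on, its longer form TCACGTGA, and none is marked in Ctsk.
Ctss, chr3:95526536-95526795, plus strand: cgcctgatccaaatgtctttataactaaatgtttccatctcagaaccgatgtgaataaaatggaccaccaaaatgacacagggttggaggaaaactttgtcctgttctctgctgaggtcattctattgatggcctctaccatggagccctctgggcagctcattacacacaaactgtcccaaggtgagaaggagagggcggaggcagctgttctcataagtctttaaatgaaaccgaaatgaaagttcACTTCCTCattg
Ctsk, chr3:95498960-95499219, plus strand: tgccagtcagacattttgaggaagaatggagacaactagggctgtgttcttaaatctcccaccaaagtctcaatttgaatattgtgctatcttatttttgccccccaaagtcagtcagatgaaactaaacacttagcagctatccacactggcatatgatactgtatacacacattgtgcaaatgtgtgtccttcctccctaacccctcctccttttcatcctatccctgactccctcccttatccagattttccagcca
Ctsc, chr7:88277835-88278094, plus strand: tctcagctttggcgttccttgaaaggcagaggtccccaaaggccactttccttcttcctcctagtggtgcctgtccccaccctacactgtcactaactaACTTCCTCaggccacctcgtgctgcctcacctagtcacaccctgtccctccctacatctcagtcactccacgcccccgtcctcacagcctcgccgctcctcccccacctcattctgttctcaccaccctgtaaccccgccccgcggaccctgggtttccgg
Ctsd, chr7:142387818-142388077, minus strand: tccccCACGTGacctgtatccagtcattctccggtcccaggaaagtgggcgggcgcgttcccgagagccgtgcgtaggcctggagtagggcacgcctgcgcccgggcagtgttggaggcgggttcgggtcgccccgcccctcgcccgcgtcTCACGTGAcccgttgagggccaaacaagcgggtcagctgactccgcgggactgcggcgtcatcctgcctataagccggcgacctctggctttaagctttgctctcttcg
RefSeq promoters were found for 8 of the 10 members, Ctsa with a pair of starts. Searches covered 300 bases, from 250 before to 50 after the start, on both strands, for 7 motifs that were chosen after the promoters had been looked at. GAGGAAGT, a form of the site bound by ETS factors such as PU.1, was found in Ctss, where it spans the start, and in Ctsc, and in 3.20% of 32851 promoters. Its inner part GGAAGT was found in Ctsa, Ctsc, Ctsk and Ctss and in 23.8% of promoters. CACGTG, the E-box bound by Myc with Max and by MiT/TFE factors, was found in 4 of the 8 genes (Ctsa, Ctsd, Ctsf and Ctsl) and in 7.15% of promoters. Its longer form TCACGTGA, which contains CACGTG, was found in Ctsa and Ctsd and in 0.974% of promoters. TCACGTGA with a G before it and a C after it was found in none of the 8 and in 0.326% of promoters. AGAGGAA and the AP-1 site TGACTCA were likewise found in none of the 8, and in 10.4% and 5.20% of promoters. A match is a description of the letters and no measure of binding.

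The MiT/TFE factors, transcription factors of lysosomal genes, rose in 4 of 4 cases in both comparisons. Tfeb went from 9.32 ± 1.57 CPM in MEF to 25.2 ± 6.97 in MCC and 32.8 ± 1.09 in iMac. Tfe3 had a log2 fold change of 1.21 ± 0.11 in iMac and Mitf one of 3.11 ± 0.32. Tfec, a member restricted largely to myeloid cells, went from 0.507 ± 0.280 CPM in MEF to 36.7 ± 6.71 in MCC and 16.1 ± 0.00407 in iMac. The median log2 fold change of the 4 was 1.87 in MCC and 2.46 in iMac. The share of all genes tested that rose was 23.4% in MCC and 25.1% in iMac.

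Other cathepsin genes were few in these cells. Of 15 listed, 7 have rows and 3 had enough counts to be tested. Ctse, an aspartic protease of immune cells, had 0 and 2 counts in MEF, 119 and 116 in MCC, with 91 and 107 in iMac, and rose in both comparisons. The ratio of its summed counts to MEF was 117 in MCC (95% counting interval 32.1 to 974) and 112 in iMac (30.7 to 935). Tinagl1, a secreted relative of cathepsin B without protease activity, fell from 349 ± 29.4 CPM in MEF to 8.37 ± 11.1 in MCC and 0.226 ± 0.150 in iMac. Its MCC call was lost without either MEF library and without either iMac library (adjusted p 0.0688 to 0.0819), and its iMac call without either iMac library (0.0652 to 0.0706). Ctso, cathepsin O, had a log2 fold change of 0.50 ± 0.11 in iMac (adjusted p = 0.0152), a call lost without MEF library 2 and without either iMac library (0.0724 to 0.11). Without either MCC library, 2 of these genes fell in iMac.

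Among 7 other lysosomal proteases, 4 rose and 1 fell in MCC, where 23.4% of all genes tested rose and 29.6% fell. In iMac 6 of the 7 rose and 1 fell, where the shares over all genes tested were 25.1% and 32.4%. Not all of the rises held with 1 library left out. In MCC the Tpp1 call was lost without either iMac library. In iMac the Dpp7 call was lost without either MCC and without either iMac library, and the Scpep1 call without iMac library 1. Lgmn, the asparaginyl endopeptidase legumain that processes several cathepsin proforms, went from 142 ± 23.1 CPM in MEF to 2299 ± 1.60 in MCC and 3225 ± 81.8 in iMac. Its log2 fold change of 4.50 ± 0.17 in iMac lay above those of the 10 cathepsins other than Ctss. Napsa, the aspartic protease napsin A, had 2 counts in MEF over both libraries, 1143 in MCC and 640 in iMac, a ratio of 571 (158 to 4720) and of 363 (100 to 3010). Prcp, a lysosomal carboxypeptidase, had a log2 fold change of 1.91 ± 0.22 in iMac. The member that fell was Cpq, a carboxypeptidase, at -1.57 ± 0.48 in iMac (adjusted p = 0.0384), a call lost without MEF library 1 and without either iMac library (0.0978 to 0.185). In MCC its call was lost without MEF library 1 and without MCC library 2 (0.0827 to 0.085).

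The inhibitors were divided. Of 12 tested, 5 rose and 5 fell in MCC, where 23.4% of all genes tested rose and 29.6% fell. In iMac 6 of the 12 rose and 5 fell, where the shares over all genes tested were 25.1% and 32.4%. Cst3, the secreted inhibitor cystatin C and the most abundant one in iMac, was at 393 and 226 CPM in MEF, 704 and 755 in MCC, with 1258 and 1236 in iMac, and it was named after its values were seen. Its log2 fold change was 1.24 ± 0.27 in MCC (adjusted p = 0.0165) and 2.01 ± 0.28 in iMac (adjusted p = 0.00387). Cstb, the cytosolic inhibitor cystatin B, rose less, with 0.77 ± 0.14 in MCC and 0.89 ± 0.14 in iMac. Cst7, cystatin F, an inhibitor of cathepsin C in leukocytes, was without a count in MEF. Set against a floor of 3 counts over the group, it was at least 54.6-fold higher in MCC and at least 56.4-fold higher in iMac. Its level stayed at 2.15 ± 1.11 CPM in MCC and 2.24 ± 0.503 in iMac.

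The 5 that fell in both comparisons were Cst6, Fetub, Kng1, Serpina3g and Serpinb1a, all below 6 CPM on average in MEF. Cst6, cystatin E/M, had 363 counts in MEF over both libraries and none in iMac, at least 107-fold lower. With 1 library left out, 3 fell in MCC whichever MEF or MCC library was missing. In iMac the number was 2 when library 1 of that group was missing and 3 when library 2 was. Of the inhibitor calls, 6 of 10 in MCC and 7 of 11 in iMac held with any 1 library left out. The lost ones were Serpinb1a (adjusted p 0.0551 to 0.139), Kng1 (0.0541 and 0.0637), Fetub (0.0505 to 0.0705) and Serpinb6b (0.0504 to 0.0714) in MCC, and in iMac Serpinb1a (0.0739), Serpinb6b (up to 0.0569), Serpina3g (up to 0.0508) and Fetub (up to 0.0518), Serpinb1a without iMac library 1 and the others without either iMac library. The MCC losses came without MEF library 1 (Serpinb1a, Kng1), MEF library 2 (Kng1, Fetub), either MCC library (Serpinb1a, Fetub, Serpinb6b) or either iMac library (Serpinb1a, Serpinb6b).

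The sorting machinery was also divided. Of 16 genes for sorting and delivery of lysosomal enzymes, 8 rose and 2 fell in MCC, and 8 rose and 3 fell in iMac, where 5 rose without iMac library 1. Over all genes tested, 23.4% rose and 29.6% fell in MCC, and 25.1% rose and 32.4% fell in iMac. The pair of mannose 6-phosphate receptors, which carry cathepsins to the lysosome, moved in opposite directions. M6pr, the cation-dependent receptor, was at 170 and 136 CPM in MEF, 390 and 421 in MCC, with 379 and 365 in iMac. Igf2r, the cation-independent receptor, was at 1055 and 906 CPM in MEF, 284 and 204 in MCC, with 225 and 175.5 in iMac. Neither gene's MEF libraries overlapped the others. The log2 fold change was 1.40 ± 0.14 for M6pr and -2.005 ± 0.22 for Igf2r in MCC, and 1.28 ± 0.14 and -2.29 ± 0.23 in iMac.

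Of the enzymes that make the mannose 6-phosphate tag, Nagpa, the uncovering enzyme, went from 19.8 ± 2.37 CPM in MEF to 90.5 ± 5.51 in MCC and 89.3 ± 3.22 in iMac. Gnptab, the phosphotransferase, had a log2 fold change of 1.09 ± 0.08 in MCC and 0.90 ± 0.08 in iMac, and Gga3, a coat adaptor of these receptors, of 1.01 ± 0.09 and 1.38 ± 0.09. Tmem106b, a lysosomal membrane protein gene, fell in both comparisons (-1.18 ± 0.09 and -0.80 ± 0.09).

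Of 14 genes for the lysosomal membrane and its acidification, 5 rose and 1 fell in MCC, and 8 rose and none fell in iMac, where 5 rose without either iMac library. Of all genes tested, 23.4% rose and 29.6% fell in MCC, and 25.1% rose and 32.4% fell in iMac. Cd68, a lysosomal glycoprotein of macrophages, went from 2.86 ± 0.401 CPM in MEF to 755 ± 49.7 in MCC and 1330 ± 0.522 in iMac. Atp6v0d2, a subunit of the proton pump, had 4 counts in MEF over both libraries and 4001 in iMac, a ratio of 1140 (443 to 4170). Tcirg1 and Atp6v1b2, other pump subunits, had log2 fold changes of 2.997 ± 0.16 and 2.21 ± 0.11 in iMac. The gene that fell in MCC was Clcn7, the chloride exchanger, at -0.34 ± 0.10 (adjusted p = 0.0424), and its call was lost without each of the 6 libraries (adjusted p 0.0847 to 0.263).

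**Figure D5:**
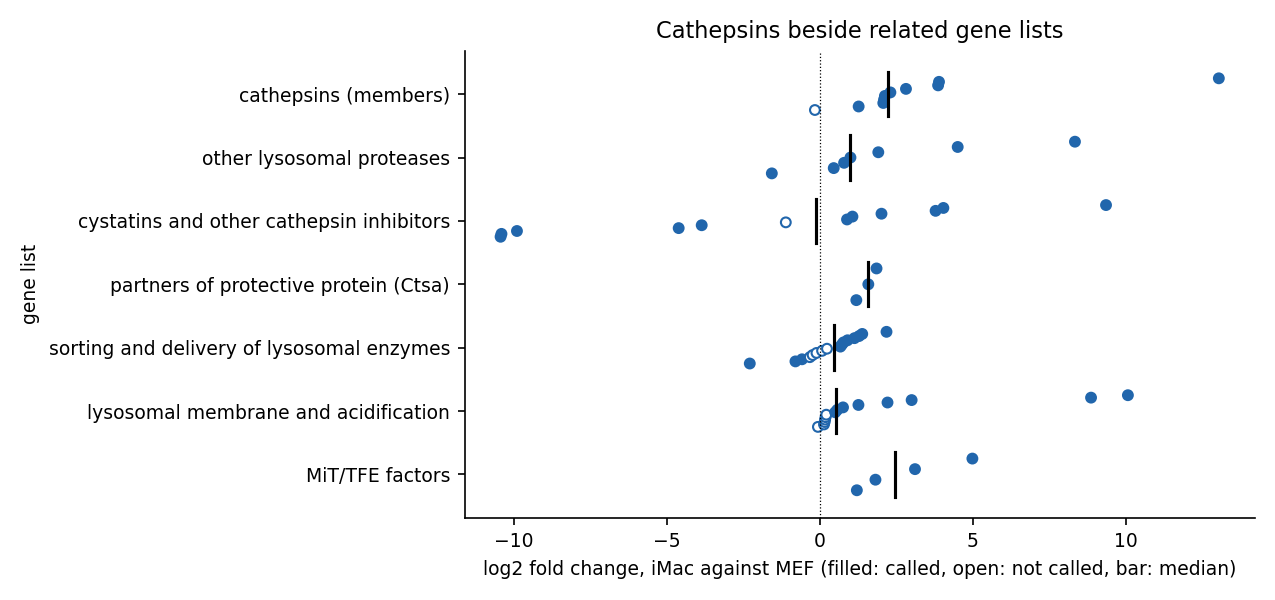
Log2 fold change of iMac against MEF for the cathepsins and for 6 related lists, 1 point per gene, filled where called and open where not, with a bar at each list's median. The cathepsin median is 2.21, and the inhibitors and the sorting genes spread to both sides of 0.

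Transcripts of matrix proteins that cathepsins can degrade went the opposite way. Of 8 listed, 6 fell in MCC and 8 fell in iMac (5 without either iMac library), and none rose. The share of all genes tested that fell was 29.6% in MCC and 32.4% in iMac. Col3a1, a fibrillar collagen, went from 3771 and 2509 CPM in MEF to 75.3 and 7.46 in MCC and 0.657 and 0.301 in iMac. Eln, elastin, had no counts in iMac and was at least 2040-fold lower there, though limma-voom did not call it (adjusted p = 0.0669). Lama1, a laminin chain, had 2069 counts in MEF over both libraries, 3 in MCC and 1 in iMac, a ratio of 0.000549 in iMac (1.39e-05 to 0.00306). In MCC the Col1a2 call was lost without MEF library 1 and the Dcn call without MEF library 2. Several of the 8 listed genes are also fibroblast markers.

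Beyond the lists, the Euclidean distance was taken between log2(CPM + 0.5) values centred on their own mean over the 6 libraries. By it the gene most like each member was picked among 7872 genes averaging 20 CPM or more. For Ctsb this was Mfsd12 at a distance of 0.138, with 14.5 and 14.3 CPM in MEF, 119 and 131 in MCC, with 245 and 213 in iMac. For Ctsa it was Mknk1 (0.125), for Ctsf Snx5 (0.13), for Ctsz Gpr137b-ps (0.149), for Ctsd Ptk2b (0.18) and for Ctsl Nagpa (0.233). Ctsh was nearest to Snx2 (0.255) and Ctsc to Hfe (0.742). Ctss was nearest to F13a1 (0.402), at 0.379 and 0.361 CPM in MEF, 1950 and 1830 in MCC, with 1980 and 1540 in iMac, and then to C1qb (0.626). In MEF the levels of Ctss, F13a1 and C1qb lay below the 0.5 CPM added, which shrinks their differences there. Ctsk had no close neighbour, the nearest being Ndrg2 at 1.58.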

How the data were processed

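RNA was measured by sequencing in 6 mouse libraries, 2 each of MEF, MCC and iMac. The deposited table holds raw read counts per gene, which the authors made with STAR on mm10 and with featureCounts, per the submitters' processing notes. The sources used here give no versions, gene annotation, strand setting or handling of multiply mapping reads. Trizol was used for total RNA and an mRNA library kit followed, per the labels.

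Counts were used as deposited. Genes were filtered with filterByExpr, scaled by TMM and tested with the two-sided quasi-likelihood test of edgeR 4.0.16 (R 4.3.3) on all 6 libraries. Group was the single term, with 3 residual degrees of freedom. P-values were adjusted by Benjamini-Hochberg over the 18613 genes tested of 30445, with a threshold of 0.05. Fold changes carry a prior count of 0.125 and an SE from the F statistic. Ratios of low counts have exact 95% binomial intervals, and the floor was 3 counts over a group. CPM is the count over the scaled library total.

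Members and lists were chosen with earlier results of these data known. From each related list up to 4 called genes with the largest fold change in iMac against MEF were named, filled up by level. Members moving against their list and any gene said to be chosen later were named in addition. A few genes, such as Gnptab and Cstb, were named outside this rule, as were some genes whose calls were lost. Most-like genes were the 2 nearest without predicted genes. Listed genes with no row, such as Cts3, Cst8, Csta1, Stfa1, Gzma and S100a9, are not analysed here. A gene and a sequence window are not reported here. The principal transcript was chosen as length after annotation lengths were seen.

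Alternatives were other scaling, DESeq2 1.42.0, limma-voom (limma 3.58.1), no filter, at least 5 CPM in 2 libraries, only the groups compared, a replicate block, and leaving out each library, where a lone library is assumed to vary like the others. All-exon lengths and other values added to CPM were chosen after seeing the data. The pipeline was also run on simulated counts with the same shifts planted in MCC and iMac. That run held no planted difference between MCC and iMac, so it cannot tell how well such a difference would be found. Python 3.11.15, numpy 2.4.6, pandas 2.3.3 and matplotlib 3.10.9 were used for annotation and plots.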

Additional observations from a re-analysis of the deposited data

How the results depend on the processing

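The 9 cathepsins called higher than in MEF kept direction and call in both comparisons under all 14 alternatives. Of the alternative values for the cathepsin fold changes, 397 kept direction and side of the threshold, 18 gained a call (all iMac against MCC) and 5 changed sign. For Ctsk these were -1.48 in MCC against MEF without MCC replicate 1, 0.116 and 0.465 in iMac against MEF without MEF replicate 1 and without iMac replicate 2, and 1.31 in iMac against MCC without MCC replicate 1. For Ctss in iMac against MCC it was 0.006 without iMac replicate 2. Leaving out 1 library gave Ctsk -1.48 to 1.57 in MCC against MEF, -1.24 to 0.465 in iMac against MEF and -1.88 to 1.31 in iMac against MCC, and Ctss -0.246 to 0.006 in the last. The cause was not tested.

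For iMac against MCC, 4 genes were called by the reported fit. The number was 2734 with DESeq2 (3 cathepsins higher, 2 lower), 146 with limma-voom (1 higher, 2 lower), 89 with no filter (1 higher, 1 lower) and 1364 with only these groups fitted (4 higher, 2 lower). Leaving out 1 library gave 0 to 1202 genes, with 0 to 2 cathepsins lower. For iMac against MEF, leaving out 1 library gave 5173 to 10695 genes against 10717, with the lowest numbers without either iMac library. Unscaled library totals moved the median of all genes in iMac against MCC from -0.02 to -0.16.

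A replicate block left the 9 cathepsin calls against MEF in place and called 0 genes in iMac against MCC (3047 at an unadjusted p under 0.05). The shared replicate numbers are not said to pair libraries, and the differences between library 1 and library 2 correlated at 0.189, 0.01 and 0.029 between groups across genes.

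Of the related genes, 1406 alternative values kept their call and 100 lost it. Of the alternative cathepsin shares, 52 moved by more than 1 SD and 8 did not. The number of libraries, 2 a group, limits the size of difference that can pass the test.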

Other observations

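Genes with the widest differences between the iMac libraries were listed after the Ctsk values were seen. With 0.5 CPM added, Ctsk was followed by Cxcl10, Cspg4, Maob and Slco4a1. Cxcl10, a chemokine gene, was at 1.69 and 0.508 CPM in MCC and 4.78 and 1.3 in iMac, and Maob, a monoamine oxidase gene, at 1.69 and 0.776 and at 1.91 and 0.332. Cspg4, a proteoglycan gene, went the other way, with library 2 higher in both, at 29.2 and 53.1 CPM in MCC and 1.22 and 4.52 in iMac. With 2 CPM added, Ctsk was followed by Slco4a1, an organic anion transporter gene, at 10.3 and 6.11 CPM in MEF, 152 and 11.0 in MCC, with 79.0 and 27.2 in iMac, so that library 1 was the higher in MCC and in iMac, as it was for Ctsk. Fxyd2, a sodium pump regulator, was at 59.0 and 15.8 CPM in MCC and 206 and 81.7 in iMac, again with library 1 higher in both. Cd163, a haemoglobin scavenger receptor of macrophages, was at 137 and 166 CPM in MCC and 20.3 and 7.03 in iMac. Of all genes tested, 0.253% differed more than 2-fold between the iMac libraries on log2(CPM + 0.5). This share was 7.17% with 0.05 CPM added and 0.0484% with 2 CPM.

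The cystatin C gene Cst3 and the summed cathepsins were both higher in iMac than in MEF. Cst3 stood at 393 and 226 CPM beside 3130 and 2840 CPM of summed cathepsins in MEF. In MCC it stood at 704 and 755 CPM beside 16900 and 16500 CPM, and in iMac at 1258 and 1236 CPM beside 24100 and 22300 CPM. The sum includes Ctsd and Ctsa, which are outside the papain family that cystatins inhibit.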
